A study of Mus musculus with 12 samples.

Results

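The genes described here are the chemokine ligands and interleukins measured in cultured mouse astrocytes. They were taken by name from the deposited count table, as every gene whose symbol is Ccl, Cxcl or Il followed by a number, with or without a final a, b or f for the interleukins, together with Cx3cl1 and Xcl1. Of the 18903 genes in the table, 40 met this rule, namely 12 CC chemokines, 12 CXC chemokines, the CX3C chemokine Cx3cl1 and 15 interleukins. All 40 passed the filter on low counts, 34 had a mean of at least 1 CPM (counts scaled to 1000000 per library after TMM normalization) and 28 had a count in all 12 libraries. The study asked how loss of Rack7 (gene symbol Zmynd8), which encodes a chromatin reader, changes the transcripts of astrocytes taken from the brain of young mice. Its 6 groups, with 2 libraries in each, are cells of WT and of Rack7-cKO mice taken at postnatal day 1 (P1), 6 (P6) and 8 (P8). By the methods, the cKO mice were hGFAP-cre::Rack7 fl/fl and the WT mice hGFAP-cre::Rack7 +/+, so the Cre transgene, driven by a human GFAP promoter that is active in neural stem cells before birth, was in both. Mice of both sexes were used, and the sources used here do not say whether animals were pooled. The meninges were stripped off before culture, and the flasks were later shaken to take away microglia and oligodendrocytes, so the cells had grown in a dish for many days beyond the postnatal day of their label.

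Chemokines are small secreted proteins that bind G protein-coupled receptors on leukocytes and draw them along a gradient, and their families are named for the spacing of the first cysteines. Interleukins act on other receptor families and carry signals among immune and glial cells, mostly through JAK and STAT proteins or, in the IL-1 family, through MyD88 and NF-kB. In the brain both microglia and astrocytes make them, and many of their promoters hold sites for NF-kB, AP-1 and interferon-regulated factors.

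Several members carry a motif searched for and differed between the labels at P8, or belong to the same row of genes as those that did. Among them Il16 and Il33, both lower in cKO at P8, are not shown. For 6 of the others the stretches of 220 bases before the start site are shown. They are RefSeq sequences of GRCm38.p6, written 5′ to 3′ on the strand of the gene, at chr5:90794314-90794533 on the + strand for Cxcl15, chr5:90891025-90891244 on the + strand for Cxcl1, chr5:90903679-90903898 on the + strand for Cxcl2, chr5:30012894-30013113 on the + strand for Il6, chr5:92348890-92349109 on the - strand for Cxcl10 and chr11:82101625-82101844 on the + strand for Ccl12. Capitals mark a TATA box in Cxcl15 and Ccl12, an NF-kB motif in Cxcl1, Cxcl2 and Il6, and in Cxcl10 an interferon-stimulated response element followed by an AP-1 motif.
Cxcl15: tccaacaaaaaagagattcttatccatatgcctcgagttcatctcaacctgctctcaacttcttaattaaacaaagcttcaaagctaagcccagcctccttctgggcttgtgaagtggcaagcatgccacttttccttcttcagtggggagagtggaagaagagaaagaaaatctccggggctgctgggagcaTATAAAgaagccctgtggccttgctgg
Cxcl1: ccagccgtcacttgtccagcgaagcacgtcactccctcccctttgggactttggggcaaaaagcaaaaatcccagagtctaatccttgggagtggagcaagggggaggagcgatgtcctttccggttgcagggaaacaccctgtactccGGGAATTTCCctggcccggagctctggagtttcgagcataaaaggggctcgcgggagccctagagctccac
Cxcl2: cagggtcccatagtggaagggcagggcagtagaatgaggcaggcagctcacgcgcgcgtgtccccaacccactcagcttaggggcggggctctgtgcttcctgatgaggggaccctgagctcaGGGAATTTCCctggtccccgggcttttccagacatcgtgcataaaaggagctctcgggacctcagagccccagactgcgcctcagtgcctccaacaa
Il6: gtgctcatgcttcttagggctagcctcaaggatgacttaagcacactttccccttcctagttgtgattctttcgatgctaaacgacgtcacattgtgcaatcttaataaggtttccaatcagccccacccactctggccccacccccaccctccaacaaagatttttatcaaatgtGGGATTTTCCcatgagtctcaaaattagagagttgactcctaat
Cxcl10: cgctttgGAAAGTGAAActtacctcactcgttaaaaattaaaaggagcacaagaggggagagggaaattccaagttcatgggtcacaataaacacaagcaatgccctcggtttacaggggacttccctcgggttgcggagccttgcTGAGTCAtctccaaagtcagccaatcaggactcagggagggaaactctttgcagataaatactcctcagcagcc
Ccl12: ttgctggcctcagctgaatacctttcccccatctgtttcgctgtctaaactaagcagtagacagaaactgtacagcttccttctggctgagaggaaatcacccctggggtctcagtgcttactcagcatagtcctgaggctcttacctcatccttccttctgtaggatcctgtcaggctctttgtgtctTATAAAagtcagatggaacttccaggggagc

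The motifs were searched for in windows of 300 bases, from 250 before to 50 after the start site, and 27 of the 40 members had an entry in the RefSeq table, with 33 windows. The NF-kB motif, GGGA and TTTCC with any 1 base between them on either strand, was in windows of 4 members (Cxcl1, Cxcl2, Il16 and Il6) and in 0.411% of all 32851 promoters. The interferon-stimulated response element, GAAA and again GAAA with any 2 bases between them on either strand, was found in Cxcl10, Cxcl14, Il19 and Il4 and in 3.44% of all promoters. The AP-1 motif TGANTCA, read alike on both strands, was found for 7 members (Ccl9, Cxcl10, Cxcl9, Il11, Il16, Il1a and Il6) and in 7.81% of all promoters, and TATAAA on the strand of the gene for 11 members and in 8.32%. These percentages are of single promoters. Of the 33 member windows, 4, 4, 7 and 12 held the respective motifs in the order given. A motif is a match of letters and says nothing of binding. The members without an entry were Ccl2, Ccl4, Ccl5, Ccl7, Cxcl11, Cxcl16, Cxcl17, Cxcl5, Il10, Il15, Il34, Il7 and Il17b.

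Library totals ran from 54413504 to 89183250 counts and TMM factors from 0.943 to 1.07. Zmynd8 itself was higher in the libraries labelled cKO at every day, at 102 ± 2.96 CPM (mean ± SD, n = 2) in WT and 166 ± 7.69 (n = 2) in cKO at P8 for example, with log2 differences of 0.65, 1.04 and 0.70. A count over the whole gene does not separate the floxed exons, so it checks no label, and the protein, which the study probed in such astrocytes by immunoblotting, is not analysed here. Every direction below is between libraries labelled cKO and libraries labelled WT. Astrocyte markers were detected in all groups, their 8 measured genes adding up to 2084 to 2162 CPM in WT at P1, to 1207 to 1237 in WT at P8 and to 567 to 589 in cKO at P8. Microglia markers (14 identifiers for 13 gene names) added up to more than these in every library, from 3846 to 8073 CPM, and the 6 fibroblast markers to between 353 and 25549.5. Of the lists for lymphocytes and neutrophils 1 gene each was in the table, Cd4 and S100a8, and neither exceeded 5.90 CPM in any library. The labels call the libraries of a group biological replicates without naming animals or cultures, so p-values measure the spread between these libraries only. With 2 libraries against 2 an exact permutation test cannot go below p = 0.333, and the tests given are those of edgeR's quasi-likelihood fit over all 17938 genes tested, with Benjamini-Hochberg adjustment.

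Set per kilobase of exon, the members with the most transcript over the mean of all libraries were CC chemokines. The highest mean level over the 12 libraries was that of Ccl5, at 124 CPM per kb, followed by Ccl2 at 115, Ccl12 at 111, Ccl7 at 103, Ccl3 at 90.1 and Ccl6 at 59.3 CPM per kb. These 6 overlapped one another across libraries, since Ccl5 alone ran from 0.378 to 374 CPM per kb and Ccl12 from 18.4 to 201. The highest interleukin was Il33, at 27.99 CPM per kb. By group the order differed. Ccl5 stood highest at P1 in both labels, at 371 ± 5.17 CPM per kb (mean ± SD, n = 2) in WT and 307 ± 2.40 in cKO. At P6 the highest were Ccl2 in WT, at 54.6 ± 9.89, and Cx3cl1 in cKO, at 59.1 ± 5.66 CPM per kb before Ccl2 at 47.8 ± 2.79. At P8 they were Il33 and Cxcl12 in WT, at 61.6 ± 1.14 and 53.3 ± 1.25, before Ccl12 at 45.00 ± 5.71, and in cKO Ccl12, at 185 ± 6.42 CPM per kb. At the low end, Cxcl17 stood at 0.159 and Il12b at 0.244 CPM per kb. A member counts as called when its adjusted p was under 0.05 and its fold change at least 1.5.

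The comparison of the labels within a day asks which of these genes differ with the genotype. At P1 6 members, or 15%, were higher in the libraries labelled cKO (Ccl6, Cxcl12, Cxcl15, Il33, Il34 and Il6) and 0 were lower. Of all genes tested 4.01% were called higher, 0.892% lower and 4.90% in either direction. For lower members at P1 the unadjusted p and DESeq2 also gave 0. At P6 the calls went both ways, with 8 members higher (Ccl6, Ccl17, Cxcl15, Il1a, Il1b, Il33, Il34 and Il6) against 7.16% of all genes, and 5 lower (Ccl7, Cxcl5, Il15, Il16 and Il18) against 6.38%, or 13.5% in either direction. At P8 the libraries labelled cKO held more of most chemokines, with 20 members higher against 11.2% of all genes and 5 lower (Cxcl12, Cxcl17, Il16, Il17b and Il33) against 8.37%, or 19.6% in either direction. By the unadjusted p with the same fold the members called were 7 higher and 0 lower against 8.86% of all genes at P1, 8 higher and 7 lower against 16.9% at P6 and 20 higher and 5 lower against 22.4% at P8. The 40 members had a median log2 difference of 0.15 on P1, -0.02 on P6 and 0.73 on P8, beside 0, 0 and 0.01 for all genes tested, and it stayed so with members at 0 in a group set at their bound. In all, 28 members were called at 1 day or more, 14 of them at P8 only, and 12 at no day, where of all genes tested 26.2% were called at 1 day or more, 10.9% at P8 only and 73.8% at no day.

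**Figure D1:**
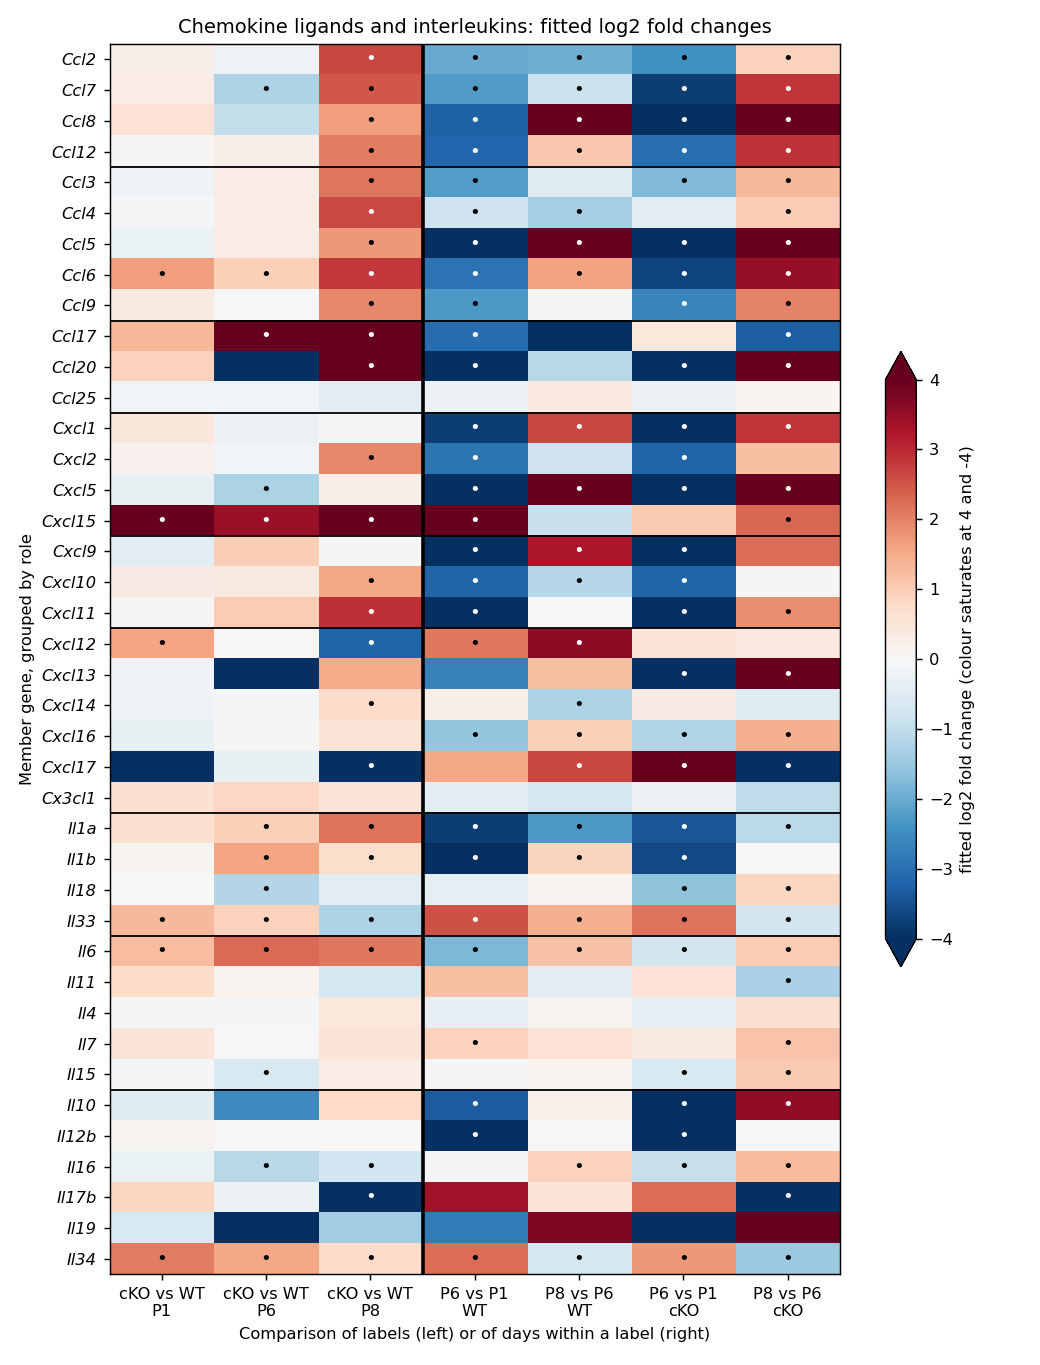
Fitted log2 fold changes of the 40 members (top to bottom, grouped by role) for cKO against WT at each day and for each step between days within a label (columns), with a dot where a member was called. Red marks higher and blue lower values, the colour saturates at 4 and -4, and members with no count in a group have values that depend on the prior count. The cKO vs WT column of P8 is red for all CC chemokines but Ccl25, and the columns for P6 against P1 are mostly blue.

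Ccl2, Ccl7, Ccl8 and Ccl12, the relatives of the monocyte chemoattractant MCP-1, lie in a row on chromosome 11 (GRCm38, 82035571 to 82116799), and all 4 were higher at P8 in the libraries labelled cKO. Ccl2 was measured at 251 and 247 CPM in the libraries labelled WT at P1, 54.2 and 70.1 at P6, then 17.2 and 15.2 at P8, against 294 and 307, 56.6 and 52.1, and 98.4 and 109.5 in those labelled cKO. This ligand of CCR2, the main attractant of monocytes, was 6.42-fold higher at P8 with no overlap between the labels (log2 difference ± standard error, as in all brackets below, 2.68 ± 0.12, adjusted p = 3.01e-07), and at P6 the labels overlapped. Ccl7 stood at 150.2 and 151 CPM in the libraries labelled WT at P1, 27.2 and 35.8 at P6, then 17.4 and 17.7 at P8, against 189 and 184, 15.3 and 11.4, and 93.3 and 101 in those labelled cKO. Ccl7, which binds CCR2 and other receptors, was lower in both cKO libraries at P6 (-1.24 ± 0.15, adjusted p = 0.000272) and 5.54-fold higher at P8 (2.47 ± 0.15, adjusted p = 2.32e-06). Ccl12 lay at 108 and 98.8 CPM in the libraries labelled WT at P1, 9.88 and 13.1 at P6, then 26.3 and 22.00 at P8, against 108 and 107, 14.6 and 12.2, and 96.7 and 102 in those labelled cKO. Another CCR2 ligand of the mouse, Ccl12 was called at P8 alone, higher by 4.10-fold (2.04 ± 0.14, adjusted p = 5.25e-06). Ccl8 gave 1.04 and 1.25 CPM in the libraries labelled WT at P1, 0 and 0.234 at P6, then 10.4 and 11.5 at P8, against 1.96 and 1.51, 0 and 0.124, and 35.2 and 34.8 in those labelled cKO. Ccl8 was nearly absent at P6 in both labels and 3.19-fold higher in cKO at P8 (1.67 ± 0.49, adjusted p = 0.0256). That call was lost under 5 alternatives, namely DESeq2 (1.66, adjusted p = 0.374) and the removal of WT replicate 1 (1.61, adjusted p = 0.123), WT replicate 2 (1.75, adjusted p = 0.101), cKO replicate 1 (1.67, adjusted p = 0.111) or cKO replicate 2 (1.68, adjusted p = 0.107) of P8.

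The MIP-type chemokines Ccl3, Ccl4, Ccl5, Ccl6 and Ccl9 form another row on chromosome 11 (83525778 to 83664683), and again every member was higher at P8 in cKO. Ccl3 was measured at 132 and 129 CPM in the libraries labelled WT at P1, 28.02 and 27.9 at P6, then 19.98 and 18.99 at P8, against 124 and 109.8, 36.3 and 32.3, and 82.5 and 87.6 in those labelled cKO. At P8 this attractant of macrophages was 4.37-fold higher in cKO (2.13 ± 0.08, adjusted p = 1.10e-07), with the labels far apart. Ccl4 lay at 32.1 and 31.4 CPM in the libraries labelled WT at P1, 15.7 and 20.3 at P6, then 6.95 and 7.09 at P8, against 27.7 and 33.1, 23.4 and 20.9, and 43.99 and 42.9 in those labelled cKO. Ccl4, another attractant of macrophages, was 6.19-fold higher at P8 (2.63 ± 0.14, adjusted p = 8.09e-07), after values that overlapped at P1. Ccl5 stood at 359 and 352 CPM in the libraries labelled WT at P1, 0.363 and 1.20 at P6, then 14.2 and 15.1 at P8, against 293 and 297, 0.868 and 1.07, and 50.9 and 46.2 in those labelled cKO. Ccl5, which attracts T cells, had the highest CPM of all members in WT at P1, was the lowest of the row at P6, and at P8 was 3.32-fold higher in cKO (1.73 ± 0.25, adjusted p = 0.000613). Ccl6 was found at 80.7 and 84.1 CPM in the libraries labelled WT at P1, 10.7 and 10.7 at P6, then 31.1 and 34.8 at P8, against 259.9 and 262, 20.8 and 20.6, and 231 and 232 in those labelled cKO. Ccl6, a CCR1 ligand of rodents, was higher in both cKO libraries than in both WT libraries at every day, by 3.17-fold at P1 (1.66 ± 0.06, adjusted p = 2.96e-07), 1.93-fold at P6 (0.95 ± 0.06, adjusted p = 3.64e-06) and 7.04-fold at P8 (2.81 ± 0.06, adjusted p = 3.87e-09). Ccl9 gave 275 and 275 CPM in the libraries labelled WT at P1, 57.3 and 55.4 at P6, then 59.1 and 58.4 at P8, against 355 and 347, 56.2 and 55.4, and 223 and 221 in those labelled cKO. Its relative Ccl9 differed by 3.78-fold at P8 (1.92 ± 0.04, adjusted p = 3.03e-09), and at P1 by less than the fold required (0.35 ± 0.04, adjusted p = 0.000374).

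Of the other CC chemokines Ccl17 and Ccl20 were called and Ccl25 was not. Ccl17, a ligand of CCR4 on T cells, gave 0 and 0.117 CPM in WT and 1.54 and 1.90 in cKO at P6 (4.80 ± 0.96, adjusted p = 0.00715), and at P8 0 and 0 in WT against 0.205 and 0.143 in cKO. With 3 counts over the group as the floor for WT, it was at least 7.62-fold higher at P8 (adjusted p = 0.0203), a call lost without WT replicate 1 (adjusted p = 0.0699), WT replicate 2 (0.0849) or cKO replicate 1 (0.0639). Ccl20 stood at 2.31 and 1.94 CPM in the libraries labelled WT at P1, 0.142 and 0 at P6, then 0.0673 and 0 at P8, against 3.57 and 4.49, 0 and 0, and 1.99 and 1.89 in those labelled cKO. Ccl20, which binds CCR6, was 57.7-fold higher in cKO at P8 (5.89 ± 1.08, adjusted p = 0.00335), where the WT libraries held 4 counts between them. Without the WT library that held those counts the fitted log2 difference was 10.05, and for Ccl17 at P6 it was 9.85 without WT replicate 2, both against a remaining library at 0. Without the WT library at 0 the P8 fold of Ccl20 was 28.9-fold. Summed over the 12 CC chemokines, the CPM were 1382 to 1403 in WT and 1663 to 1668 in cKO at P1, 213 to 243 and 216 to 234 at P6, and 213 to 214 and 966 to 988 at P8. The P8 ratio of the means was 4.57, and 11 of the 12 genes were called higher there.

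At P8 the summed microglia markers, like the summed CC chemokines, were higher in cKO. At P1 the marker sum was lower in cKO and the CC sum higher, but of the 12 CC genes only Ccl6 was called there. The P1 means of Ccl3, Ccl4 and Ccl5 were lower in cKO, as the marker sum was. The marker sum was 3846 to 3889.8 CPM in WT and 8026 to 8073 in cKO at P8, a ratio of 2.08, with 10 of the 14 identifiers higher and 1, Tmem119, lower. At P1 the sums were 5487 to 5590.4 and 4755 to 4860.2, and at P6 3942 to 4104 and 4328 to 4374. None of these markers was at 0 in a whole group, though 1 of the Itgam identifiers had 1 count in cKO at P6. The part of microglia in the CC chemokine result was not tested, and in bulk libraries more cells of a type and more RNA per cell cannot be told apart.

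**Figure D2:**
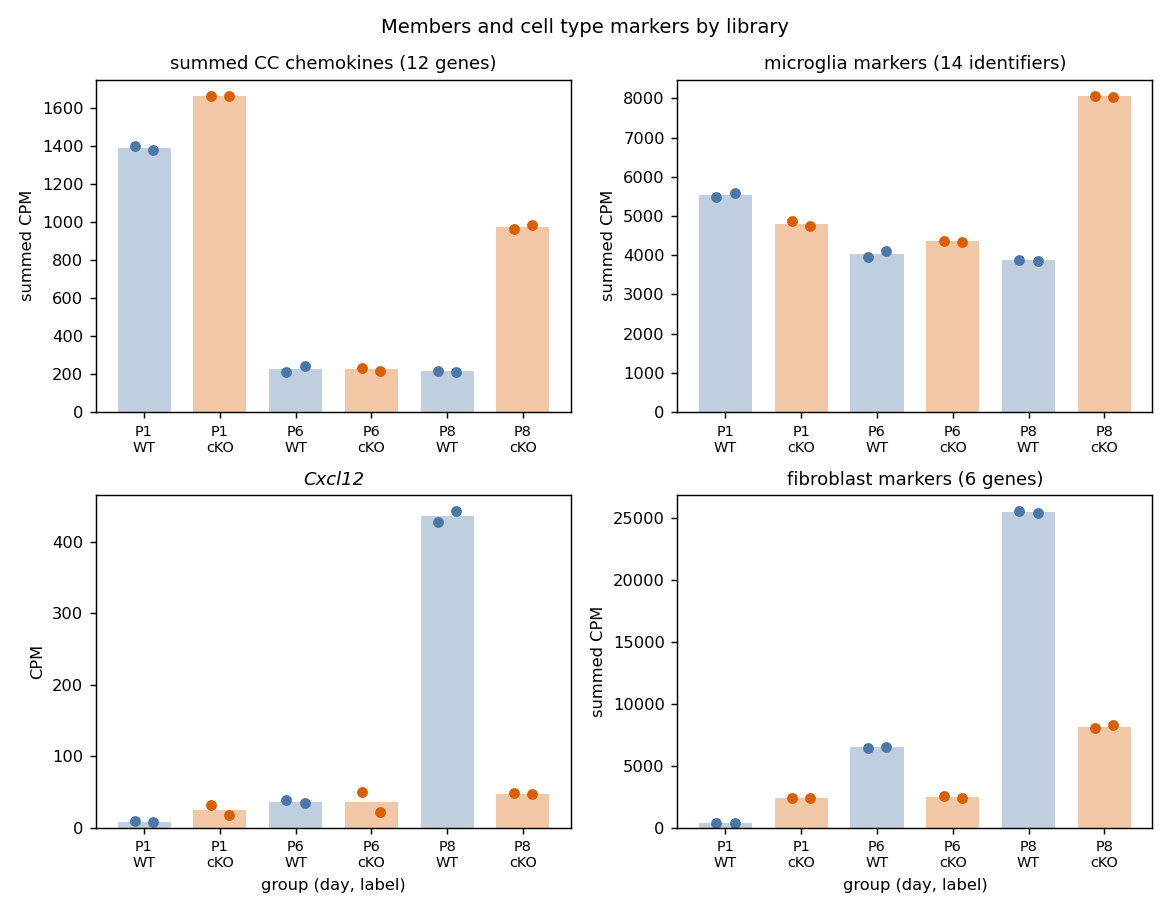
Summed CPM of the 12 CC chemokines (top left), of 14 microglia marker identifiers (top right) and of 6 fibroblast markers (bottom right), and CPM of Cxcl12 (bottom left), by group, with bars for the mean and points for the 2 libraries. At P8 the CC chemokines and the microglia markers stand higher in cKO, and Cxcl12 and the fibroblast markers stand higher in WT.

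The neutrophil-attracting CXC chemokines Cxcl5, Cxcl15, Cxcl1 and Cxcl2 lie in a row on chromosome 5 (90759360 to 90905938), and they did not move together. Cxcl15 was measured at 0 and 0 CPM in the libraries labelled WT at P1, 0.284 and 0.234 at P6, then 0.235 and 0.0554 at P8, against 1.11 and 1.58, 2.57 and 2.94, and 14.05 and 13.03 in those labelled cKO. Cxcl15, known as lungkine for its expression in lung epithelium, was all but absent from WT and higher in every cKO library, by at least 63.1-fold at P1 with the same floor (adjusted p = 0.000465), 10.7-fold at P6 (3.41 ± 0.44, adjusted p = 0.000729) and 93.1-fold at P8 (6.58 ± 0.50, adjusted p = 2.03e-05), or 244-fold without WT replicate 1 of P8 and 57.5-fold without WT replicate 2. Cxcl5 of the same row did not share this. Cxcl5 lay at 17.99 and 17.2 CPM in the libraries labelled WT at P1, 1.21 and 0.511 at P6, then 60.4 and 53.9 at P8, against 13.8 and 14.5, 0.426 and 0.280, and 66.8 and 68.7 in those labelled cKO. Cxcl5, which like Cxcl1 and Cxcl2 signals through CXCR2, was called lower in cKO at P6 (-1.27 ± 0.37, adjusted p = 0.0314), and its labels did not differ past the threshold at P1 or P8. That call was lost on the 4 libraries of P6 alone (-1.29, adjusted p = 0.220) and without WT replicate 1 (-0.53, adjusted p = 0.264), cKO replicate 1 (-1.61, adjusted p = 0.0532) or cKO replicate 2 (-1.003, adjusted p = 0.167). Cxcl2 gave 9.81 and 8.01 CPM in the libraries labelled WT at P1, 1.33 and 1.04 at P6, then 0.437 and 0.873 at P8, against 8.43 and 11.8, 1.71 and 0.482, and 2.29 and 2.76 in those labelled cKO. It was 3.85-fold higher in cKO at P8 (1.93 ± 0.52, adjusted p = 0.0182), but not without WT replicate 1 (1.53, adjusted p = 0.115) or cKO replicate 2 (1.79, adjusted p = 0.0744). Cxcl1, with an NF-kB motif in the same letters as that of Cxcl2, was at 12.2 and 12.1 CPM in WT and 11.7 and 11.4 in cKO at P8 (-0.07 ± 0.18, adjusted p = 0.811) and was called at no day.

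**Figure D3:**
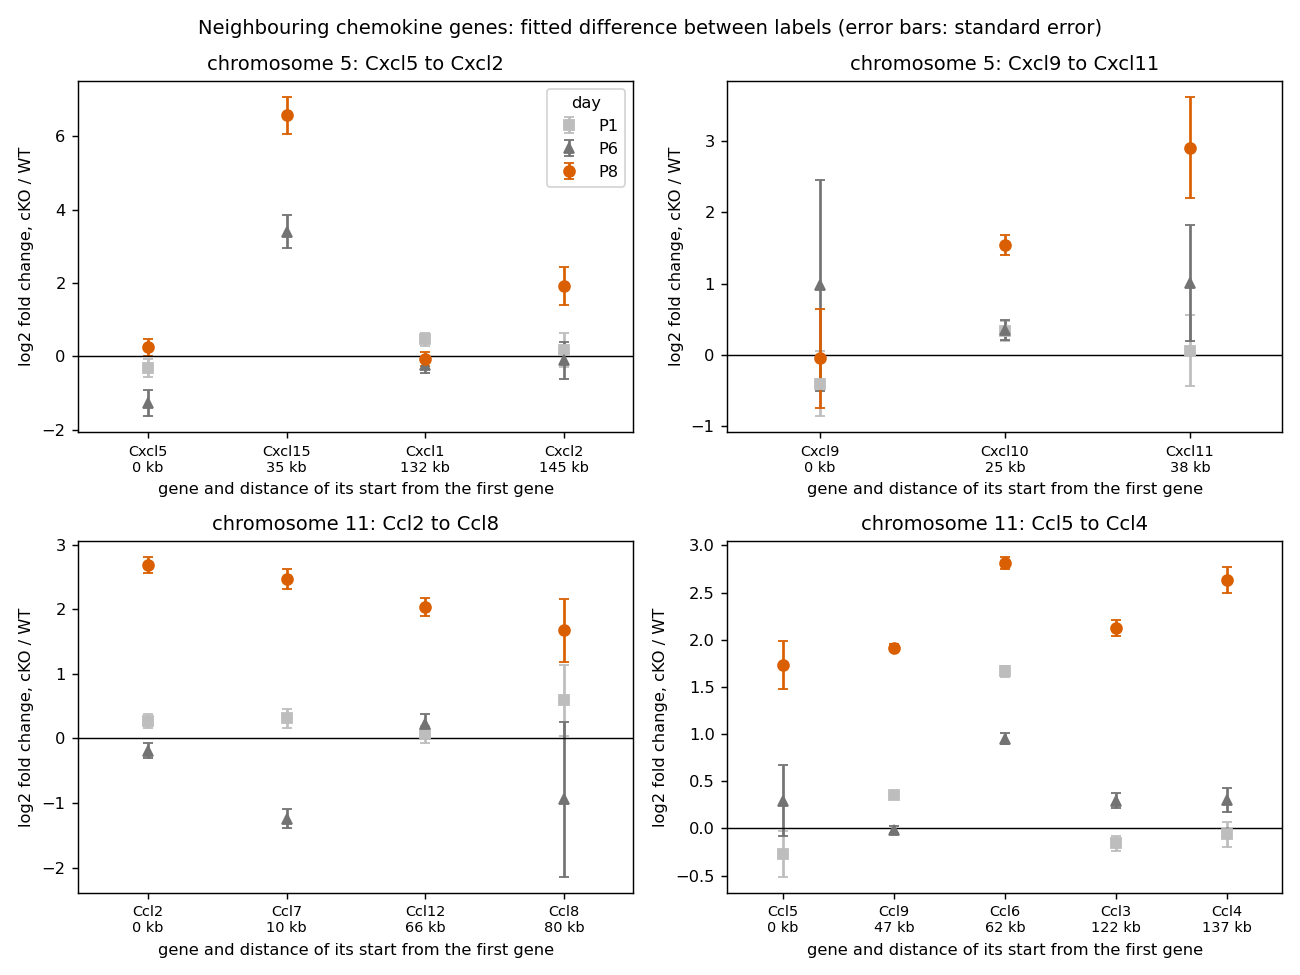
Log2 fold change of cKO against WT with its standard error for each gene in the 4 rows of neighbouring chemokines, at P1 (light squares), P6 (dark triangles) and P8 (orange circles), with the distance of each gene's start from the first gene of the row in kb. In both rows on chromosome 11 all P8 points lie above 0, while in the rows on chromosome 5 some lie near 0, and Cxcl15 at P1 is left out because its WT group had no count.

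Cxcl9, Cxcl10 and Cxcl11, the interferon-inducible ligands of CXCR3, form a row further along chromosome 5 (92321347 to 92365485), and 2 of them were higher in cKO at P8. Cxcl10 was measured at 107 and 100.2 CPM in the libraries labelled WT at P1, 9.59 and 12.7 at P6, then 5.53 and 4.65 at P8, against 126 and 135, 15.1 and 13.3, and 13.9 and 15.7 in those labelled cKO. At P8 both cKO libraries lay above both WT libraries, by 2.91-fold (1.54 ± 0.14, adjusted p = 3.44e-05), and at P6 they differed by 0.35 ± 0.14 without a call. Cxcl11 stood at 7.58 and 7.36 CPM in the libraries labelled WT at P1, 0.0631 and 0.117 at P6, then 0 and 0.166 at P8, against 8.47 and 7.11, 0.122 and 0.249, and 0.655 and 0.701 in those labelled cKO. Cxcl11 was 8.16-fold higher at P8 from few counts (2.91 ± 0.71, adjusted p = 0.0114), which was lost on the 4 libraries of P8 alone (2.91, adjusted p = 0.101), and the fitted value was 8.51 without WT replicate 2, against a WT library at 0. Without that library the fold was 4.08-fold. Cxcl9 gave 0.404 and 0.222 CPM in WT and 0.464 and 0.143 in cKO at P8 and was not called (-0.05 ± 0.70, adjusted p = 0.970). Of the 40 members 25 overlap no other annotated gene, and without the strand setting of the counting the reads of the others cannot be told from those of their partners on the other strand, such as Art3 for Cxcl10 and Cxcl11, Gm17268 for Ccl2, E230016K23Rik for Ccl6, Gm24322 for Cxcl15 and Zmynd15 for Cxcl16.

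Cxcl12 was the member with the largest P8 difference in CPM, and it was lower in cKO where most called chemokines were higher. Cxcl12 was measured at 8.75 and 8.18 CPM in the libraries labelled WT at P1, 38.97 and 33.9 at P6, then 428 and 443 at P8, against 32.3 and 18.1, 49.7 and 22.2, and 47.7 and 47.3 in those labelled cKO. This ligand of CXCR4, which guides migrating neurons and keeps blood stem cells in the marrow, was 9.17-fold lower in cKO at P8 (-3.20 ± 0.36, adjusted p = 0.000123), with the WT libraries far above all others. At P1 it was 2.98-fold higher in cKO (1.57 ± 0.36, adjusted p = 0.0241), a call lost without WT replicate 1 (1.62, adjusted p = 0.112), WT replicate 2 (1.53, adjusted p = 0.129) or cKO replicate 1 (1.10, adjusted p = 0.143), and at P6 the labels overlapped. The fibroblast markers had the same order of groups at P1 and P8, with sums of 353 to 367 CPM in WT and 2380.4 to 2409 in cKO at P1, 6448 to 6503 and 2389 to 2566 at P6, and 25429.9 to 25549.5 and 8033 to 8277 at P8. At P8 5 of the 6 were called lower, and Lum was at 0 in both cKO libraries of P6. The endothelial markers, of whose 5 genes 3 were measured, summed to 7.58 to 7.86 CPM in WT and 30.6 to 31.1 in cKO at P1, to 108 to 113 and 53.01 to 55.6 at P6, and to 145 to 158 and 33.9 to 35.4 at P8. At P8 2 of these 3 were called lower (Cdh5 and Tek) and 1, Flt1, higher (1.92 ± 0.19, adjusted p = 4.94e-05). The mural markers, of whose 6 genes 5 were measured, had higher sums in cKO at every day. They were 1745 to 1755 CPM in WT and 2616.6 to 2617.2 in cKO at P1, 2266 to 2322 and 2587 to 2944 at P6, and 1896 to 1905 and 2260 to 2275 at P8. Of these, Cspg4 was called lower at P8 and Myh11 higher. The part of any of these lists in the Cxcl12 result was not tested.

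Cxcl14 stood at 33.7 and 34.2 CPM in the libraries labelled WT at P1, 41.1 and 38.8 at P6, then 16.7 and 16.6 at P8, against 32.3 and 29.5, 42.4 and 35.7, and 27.2 and 28.4 in those labelled cKO. Cxcl14, a chemokine of epithelia and brain, was 1.67-fold higher in cKO at P8 (0.74 ± 0.09, adjusted p = 0.000223), with no overlap. Cxcl16 lay at 108 and 106 CPM in the libraries labelled WT at P1, 34.8 and 38.8 at P6, then 69.9 and 71.97 at P8, against 86.6 and 86.6, 40.7 and 35.2, and 106 and 99.6 in those labelled cKO. The transmembrane chemokine Cxcl16, a ligand of CXCR6, differed at P1 (-0.31 ± 0.08, adjusted p = 0.0442) and at P8 (0.53 ± 0.08, adjusted p = 0.000714) by less than 1.5-fold, so it was called at no day. Cxcl17, a chemokine of mucosal tissue, gave 0.589 and 0.499 CPM in WT and 0 and 0 in cKO at P8, at least 28.5-fold lower (adjusted p = 0.00245). Cx3cl1 was measured at 46.9 and 314 CPM in the libraries labelled WT at P1, 131 and 129.99 at P6, then 79.6 and 80.6 at P8, against 276 and 275, 248 and 217, and 118 and 112 in those labelled cKO. Cx3cl1, the membrane-bound fractalkine whose receptor in the brain is on microglia, was called at no day, but its 2 WT libraries of P1 lay far apart, the lower one below every other library of the study. In that group only 18 of the 11172 genes with at least 1000 counts were 4-fold or further apart, and Cx3cl1 was the only member among them. Without WT replicate 2 of P1 it was called higher in cKO at P1 (2.56 ± 0.09, adjusted p = 3.21e-06), whereas without WT replicate 1 of P1 the P1 difference was -0.19 ± 0.08 (adjusted p = 0.255) and not called. At P6 it was called higher without WT replicate 1 of P1 (0.82 ± 0.06, adjusted p = 5.04e-05), without WT replicate 2 of P1 (adjusted p = 5.31e-05) and on the 4 libraries of P6 alone (adjusted p = 0.00210). Cxcl13, a ligand of CXCR5 on B cells, stayed at or below 1.27 CPM and was not called.

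Within the IL-1 family the cytokines Il1a and Il1b were higher in cKO at P6 and P8, Il18 was lower at P6, and Il33 changed its direction. Il33 was measured at 9.91 and 12.9 CPM in the libraries labelled WT at P1, 70.00 and 63.3 at P6, then 180.1 and 175 at P8, against 26.1 and 29.3, 121 and 129, and 71.5 and 80.01 in those labelled cKO. Il33, an alarmin stored in the nucleus and read by the receptor Il1rl1 (ST2), was 2.44-fold higher in cKO at P1 (1.28 ± 0.12, adjusted p = 0.000198) and 1.88-fold higher at P6 (0.91 ± 0.12, adjusted p = 0.000438), and 2.35-fold lower at P8 (-1.23 ± 0.12, adjusted p = 4.14e-05), without overlap on any day. Il1a stood at 30.9 and 25.3 CPM in the libraries labelled WT at P1, 2.48 and 1.65 at P6, then 0.521 and 0.319 at P8, against 42.8 and 42.9, 3.53 and 4.39, and 2.20 and 1.58 in those labelled cKO. Il1a lay higher in both cKO libraries at all days and was called at P6 (0.94 ± 0.25, adjusted p = 0.0215) and at P8 (2.18 ± 0.30, adjusted p = 0.000414). Il1b lay at 10.6 and 12.3 CPM in the libraries labelled WT at P1, 0.284 and 0.394 at P6, then 0.605 and 0.651 at P8, against 12.6 and 12.3, 1.20 and 0.840, and 1.05 and 1.02 in those labelled cKO. Il1b, which needs cleavage by the inflammasome to act, was 3.01-fold higher at P6 (1.58 ± 0.24, adjusted p = 0.00101) and 1.65-fold higher at P8 (0.72 ± 0.22, adjusted p = 0.0312). Il18 gave 8.28 and 8.65 CPM in the libraries labelled WT at P1, 5.85 and 6.94 at P6, then 6.56 and 7.09 at P8, against 8.18 and 9.13, 2.48 and 3.19, and 4.87 and 5.35 in those labelled cKO. Il18, another cytokine cut by the inflammasome, was 2.25-fold lower in cKO at P6 (-1.17 ± 0.16, adjusted p = 0.000570). Il1a, Il1b and Il18 each overlap a gene on the other strand.

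Several of these calls depended on the libraries used. For Il1a at P6 the call was lost on the 4 libraries of P6 alone (0.94, adjusted p = 0.0803) and without WT replicate 2 (0.67, adjusted p = 0.135) or cKO replicate 2 (0.78, adjusted p = 0.113). Il1b at P6 was not called on the 4 libraries alone (1.58, adjusted p = 0.0781). At P8 its call was lost on the 4 libraries alone (0.70, adjusted p = 0.127) and without WT replicate 1 (0.67, adjusted p = 0.126), WT replicate 2 (0.77, adjusted p = 0.0916), cKO replicate 1 (0.70, adjusted p = 0.105) or cKO replicate 2 (0.74, adjusted p = 0.0911).

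Il6 was the one member of its group, the cytokines that signal through gp130 or the common gamma chain, that differed at every day. Il6 was measured at 3.74 and 3.34 CPM in the libraries labelled WT at P1, 1.15 and 0.891 at P6, then 2.37 and 2.26 at P8, against 7.46 and 9.18, 4.95 and 4.95, and 9.22 and 10.9 in those labelled cKO. This cytokine, a strong inducer of the acute phase that also drives STAT3 in astrocytes, was 2.35-fold higher in cKO at P1 (1.23 ± 0.17, adjusted p = 0.00220), 4.85-fold at P6 (2.28 ± 0.19, adjusted p = 2.40e-05) and 4.34-fold at P8 (2.12 ± 0.18, adjusted p = 1.69e-05), with both cKO libraries above both WT libraries each time. Il15 stood at 4.79 and 4.73 CPM in the libraries labelled WT at P1, 4.89 and 4.04 at P6, then 5.65 and 4.25 at P8, against 4.51 and 4.48, 2.79 and 3.11, and 6.25 and 5.84 in those labelled cKO. Il15, which sustains natural killer cells, was called lower in cKO at P6 (-0.60 ± 0.18, adjusted p = 0.0333). The call was lost on the 4 libraries of P6 alone (-0.60, adjusted p = 0.113), and without WT replicate 1 (-0.46, adjusted p = 0.176), cKO replicate 1 (-0.52, adjusted p = 0.146) or cKO replicate 2 of P6 (-0.68, adjusted p = 0.0684), and it also missed the threshold without cKO replicate 1 (adjusted p = 0.0529) or cKO replicate 2 of P8 (adjusted p = 0.0526). Il11, Il4 and Il7 were called at no day, at 0.486 to 2.19, 0.836 to 1.85 and 8.11 to 35.4 CPM over all libraries.

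Of the remaining interleukins, Il34 was higher and Il16 lower in cKO. Il34 was measured at 2.35 and 2.25 CPM in the libraries labelled WT at P1, 11.5 and 9.91 at P6, then 6.83 and 6.75 at P8, against 7.94 and 10.9, 31.8 and 30.7, and 11.6 and 10.9 in those labelled cKO. Il34, which shares the receptor Csf1r with the growth factor Csf1 and keeps microglia alive, was 4.10-fold higher at P1 (2.04 ± 0.16, adjusted p = 4.78e-05), 2.92-fold at P6 (1.54 ± 0.15, adjusted p = 6.29e-05) and 1.66-fold at P8 (0.73 ± 0.15, adjusted p = 0.00401). Il16 lay at 11.3 and 12.96 CPM in the libraries labelled WT at P1, 11.99 and 10.95 at P6, then 21.5 and 22.3 at P8, against 10.6 and 9.55, 5.30 and 5.27, and 13.5 and 12.03 in those labelled cKO. Il16, cut from a long precursor and read through CD4, was 2.17-fold lower at P6 (-1.12 ± 0.11, adjusted p = 8.82e-05) and 1.72-fold lower at P8 (-0.78 ± 0.11, adjusted p = 0.000460), with the labels apart. Il17b, a member of the IL-17 family, gave 1.06 and 1.27 CPM in WT and 0 and 0 in cKO at P8, at least 61.2-fold lower (adjusted p = 0.0121), a call lost without cKO replicate 1 (0.0568) or cKO replicate 2 (0.0610). Il10, an anti-inflammatory cytokine, its relative Il19, and Il12b were called at no day, and Il12b, the shared subunit of IL-12 and IL-23, had no count in any library of P6 or P8. Il16 and Il34 both share their locus with genes on the other strand, and Il16 also with a pseudogene on its own strand.

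**Figure D4:**
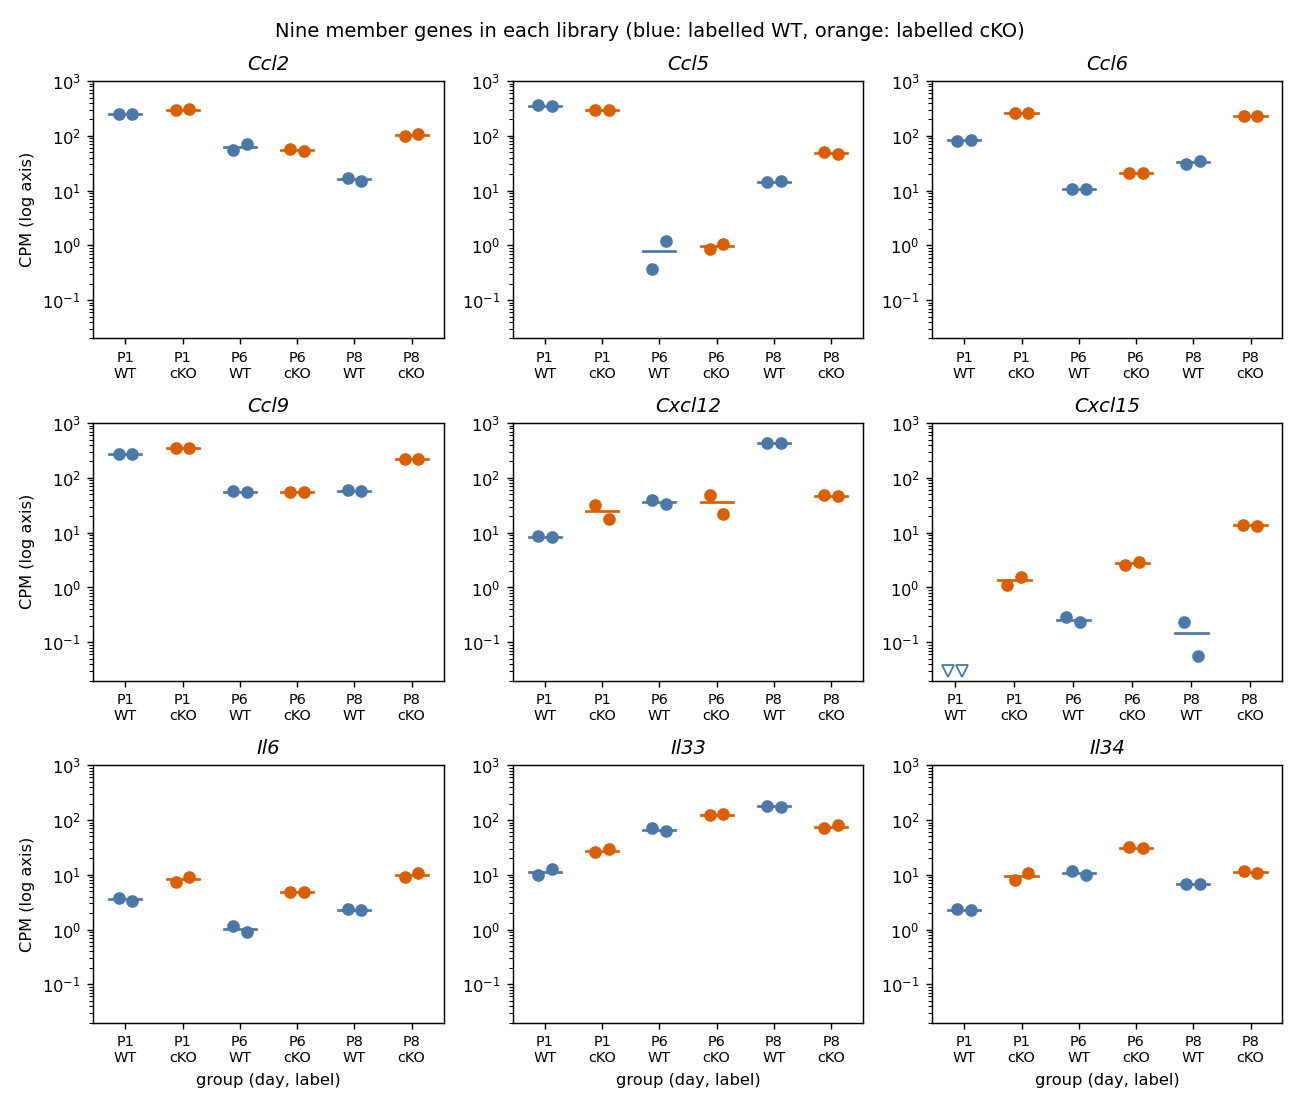
CPM of 9 members in each of the 12 libraries (points, log axis) with the group mean as a line, blue for WT and orange for cKO, and open triangles at the foot for libraries with no count. Ccl2, Ccl5, Ccl6 and Ccl9 stand higher in cKO at P8, Cxcl15, Il6 and Il34 at every day, and Cxcl12 and Il33 stand lower in cKO at P8 alone.

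The steps between days within a label show how these genes stood in cells taken at different ages. From P1 to P6 most members fell in both labels. Among WT libraries 5 members were higher at P6, against 12.2% of all genes, and 23 lower, against 10.9%, and among cKO libraries 3 were higher, against 11.0%, and 25 lower, against 10.4%. In either direction the calls over all genes were 23.1% and 21.4%, and by the unadjusted p the members called were 7 higher and 23 lower against 25.8% of all genes in WT and 4 higher and 26 lower against 24.1% in cKO. In both labels 21 fell, among them 9 of the 12 CC chemokines and Il6, whose call in cKO was lost without cKO replicate 2 of P1 (adjusted p = 0.0521). How many of all genes fell or rose in both labels was not counted. Ccl5 fell 456-fold in WT (-8.81 ± 0.36, adjusted p = 1.02e-07) and 304-fold in cKO (-8.25 ± 0.35, adjusted p = 2.42e-07). The WT fold was 297-fold without WT replicate 1 of P6 and 981-fold without WT replicate 2. Cxcl10 was 9.31-fold and 9.18-fold lower at P6, and Il1a 13.6-fold and 10.8-fold lower. Il33 and Il34 were the 2 members that rose in both labels, Il33 by 5.86-fold in WT and 4.52-fold in cKO, and Il34 by 4.66-fold and 3.32-fold. The summed CC chemokines were 6.10 times higher at P1 than at P6 in WT and 7.40 times in cKO, the summed microglia markers 1.38 and 1.11 times and the astrocyte markers 1.53 and 1.48 times. The fibroblast markers were instead higher at P6, 18.0 times in WT and 1.03 times in cKO, and the endothelial markers 14.3 and 1.76 times. The days are separate cultures, so age and culture cannot be told apart.

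From P6 to P8 the labels parted. Among WT libraries 14 members were higher at P8, against 8.66% of all genes, and 7 lower, against 10.3%, and among cKO libraries 22 were higher, against 11.9%, and 7 lower, against 12.2%. In either direction these were 18.9% and 24.0% of all genes, and the unadjusted p called 15 higher and 8 lower against 21.9% of all genes in WT and 25 higher and 7 lower against 26.6% in cKO. In both labels 9 rose (Ccl12, Ccl5, Ccl6, Ccl8, Cxcl1, Cxcl16, Cxcl5, Il16 and Il6), and the share of all genes that rose in both was not counted. Cxcl5 rose 66.2-fold in WT (6.06 ± 0.31, adjusted p = 7.81e-07) and 192-fold in cKO (7.57 ± 0.35, adjusted p = 2.59e-07). The WT rise was 112-fold without WT replicate 1 of P6, the higher of that pair. Ccl2, Ccl4 and Ccl7 went opposite ways, Ccl2 falling 3.84-fold in WT (-1.94 ± 0.12, adjusted p = 2.37e-06) and rising 1.91-fold in cKO (0.94 ± 0.11, adjusted p = 0.000152). Ccl4 was 2.56-fold lower in WT and 1.96-fold higher in cKO, and Ccl7 1.80-fold lower and 7.30-fold higher. Il33 did the reverse, rising 2.67-fold in WT and falling 1.65-fold in cKO. Cxcl12 rose 11.96-fold in WT (3.58 ± 0.37, adjusted p = 7.81e-05), and its cKO libraries of the 2 days overlapped.

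Whether the difference between the labels changed with the day was tested by the interaction terms, called on adjusted p alone. Between P1 and P6 it changed for 9 members, upwards for 3, against 7.12% of all genes, and downwards for 6, against 8.19%. Between P6 and P8 it changed for 20, upwards for 15, against 12.6%, and downwards for 5, against 8.83%. Between P1 and P8 it also changed for 20, upwards for 15, against 14.0%, and downwards for 5, against 11.7%. In either direction these terms were called for 15.3%, 21.5% and 25.7% of all genes, and the unadjusted p called 5 higher and 11 lower against 27.4%, 20 higher and 6 lower against 33.2% and 17 higher and 6 lower against 36.1%. These comparisons share libraries with one another and with those of the labels within a day. Ccl9, with close replicates, gave 1.93 ± 0.05, adjusted p = 6.99e-08 between P6 and P8 and 1.57 ± 0.05, adjusted p = 8.50e-08 between P1 and P8. For Ccl2 the values were 2.88 ± 0.16, adjusted p = 3.60e-06 and 2.41 ± 0.16, adjusted p = 6.08e-06. The effect moved downwards for Cxcl12 (-4.77 ± 0.51, adjusted p = 0.000115 between P1 and P8), for Il33 (-2.51 ± 0.17, adjusted p = 6.08e-06) and for Il34 (-1.31 ± 0.21, adjusted p = 0.00155).

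The partners of these ligands were counted from lists of receptors, other ligands and antagonists, and signalling genes, of which 41, 15 and 28 were tested. At P1 2 receptors were higher and 2 lower, with 1 other ligand and 1 signalling gene higher. At P6 3 receptors were higher and 6 lower, 5 other ligands higher and 1 lower, and 1 signalling gene lower. At P8 12 receptors were higher and 7 lower, 8 other ligands higher, and 6 signalling genes higher. Together the 84 partner genes gave 4 higher and 2 lower at P1 (4.76% and 2.38%, beside 4.01% and 0.892% of all genes), 8 higher and 8 lower at P6 (9.52% and 9.52%, beside 7.16% and 6.38% of all genes) and 26 higher and 7 lower at P8 (30.95% and 8.33%, beside 11.2% and 8.37% of all genes). The medians of the log2 differences at P8 were 0.43, 0.74 and 0.21, beside 0.01 for all genes.

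Among the receptors, Il18rap, a subunit of the IL-18 receptor, was higher in cKO at P1 (1.10 ± 0.26, adjusted p = 0.0276) and at P6 (3.25 ± 0.27, adjusted p = 2.84e-05), at means of 1.80 and 17.2 CPM on the latter day. Cx3cr1, the receptor of Cx3cl1 and a microglia marker, was lower at P1 (-0.83 ± 0.14, adjusted p = 0.00531), and Il1rl1, the receptor of Il33, was higher (0.75 ± 0.16, adjusted p = 0.0171). Il1rl1 was also higher at P6 (1.25 ± 0.15, adjusted p = 0.000324) and P8 (1.08 ± 0.15, adjusted p = 0.000481), and Il18rap at P8 (1.51 ± 0.26, adjusted p = 0.00152). Ccr3 was lower at P6 (-2.02 ± 0.63, adjusted p = 0.0441) and higher at P8 (3.91 ± 0.66, adjusted p = 0.00142), and Il1rl2, the IL-36 receptor, was lower at P6 (-1.56 ± 0.34, adjusted p = 0.00816). At P8 Ccr2, the receptor of Ccl2, Ccl7 and Ccl12, was lower (-3.59 ± 0.55, adjusted p = 0.000820), at 7.73 CPM in WT and 0.639 in cKO, while these ligands were higher. Il7r was higher (3.55 ± 0.56, adjusted p = 0.00102), from 0.306 to 3.66 CPM. The gp130 gene Il6st was lower at P6 (-0.93 ± 0.05, adjusted p = 1.43e-06) and P8 (-0.77 ± 0.05, adjusted p = 2.93e-06). Il1r1 was also lower at P6 (-1.07 ± 0.13, adjusted p = 0.000349) and P8 (-0.73 ± 0.13, adjusted p = 0.00210), while Il1rap was higher (1.00 ± 0.05 and 1.12 ± 0.05). Osmr was called lower at P6 alone (-1.31 ± 0.06, adjusted p = 8.68e-07) and Lifr at P8 alone (-0.99 ± 0.25, adjusted p = 0.0128).

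Of the other ligands, the cytokine Lif was higher in cKO at all 3 days, at 21.3 and 52.8 CPM in WT and cKO at P1 (1.31 ± 0.15, adjusted p = 0.000528), 63.3 and 210.2 at P6 (1.73 ± 0.15, adjusted p = 2.96e-05) and 9.97 and 21.1 at P8 (1.08 ± 0.15, adjusted p = 0.000388). Csf1, which shares its receptor with Il34, was higher at P6 (1.20 ± 0.04, adjusted p = 8.43e-08), at 428 and 979.6 CPM, as was Clcf1, a ligand of the CNTF receptor (1.11 ± 0.26, adjusted p = 0.0121). Both were also called higher at P8, Csf1 by 1.07 ± 0.04 (adjusted p = 9.74e-08) and Clcf1 by 0.77 ± 0.26 (adjusted p = 0.0499). At P8 the inflammatory cytokine Tnf (2.30 ± 0.10, adjusted p = 3.04e-07) and Osm, another gp130 cytokine (1.64 ± 0.16, adjusted p = 4.03e-05), were higher too. Among signalling genes the NF-kB inhibitor Nfkbie was higher at P1 (0.59 ± 0.13, adjusted p = 0.0222), and Irak3, which restrains signals of the IL-1 receptor, was lower at P6 (-0.76 ± 0.22, adjusted p = 0.0313). At P8 the NF-kB brake Tnfaip3 (1.86 ± 0.32, adjusted p = 0.00171) and the transcription factor gene Cebpb (1.14 ± 0.13, adjusted p = 0.000102) were higher. So was Ikbkg, the gene of the regulatory subunit of the IkB kinase complex (1.23 ± 0.42, adjusted p = 0.0468).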

How the data were processed

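RNA-seq of cultured astrocytes gave 12 libraries in 6 groups of 2. For 18903 genes the authors deposited raw counts, as whole reads per gene. Reads were mapped with HISAT2 to mm10 (GRCm38), by the submitters' processing notes and the methods, and of the counting program, strand setting and annotation nothing is given in the sources used here. Overlapping genes, the paired identifiers of Itgam and genes of similar sequence, such as the CC chemokines, could have shared or lost reads in that step.

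The main tool was edgeR 4.0.16 (TMM, filterByExpr, quasi-likelihood test), under R 4.3.3 with limma 3.58.1, and DESeq2 1.42.0 served as an alternative. A single fit gave each of the 6 groups its own mean, and p was adjusted by Benjamini-Hochberg over the 17938 genes tested. Calls needed an adjusted p under 0.05 and a 1.5-fold change, but interaction terms the adjusted p alone. CPM are counts scaled to 1000000 per TMM-scaled library. A standard error is the log2 difference over the root of its F. Folds are ratios of mean CPM, and a group with no count was set at a floor of 3 counts over the group, which covers counting error only. Levels per kb and positions use GENCODE vM21 exons (GRCm38), and promoters are RefSeq's on GRCm38.p6. Members lie in a row where each starts within 500 kb of the next, whatever other genes lie between them. For its own differential expression the study used ballgown and DESeq2, by p and fold.

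Values in every library are given for the 26 members with a mean of at least 1 CPM that were called between labels or in an interaction, or that rank among the 6 highest per kb, and for Cx3cl1, which was added after its values were seen because 1 library stood apart. For 3 rarer called members the values of the compared groups are given, and of each partner list the 3 called genes with the largest change and at least 1 CPM. Some of these partner genes are also given at other days, and the receptor genes Il6st, Il1r1, Il1rap, Osmr and Lifr were added after their values were seen. The members and lists were chosen with earlier results of these data known. Alternatives were DESeq2 size factors, no filter, a block for the replicate number, DESeq2 on all libraries, the unadjusted p, the 4 libraries of a day alone, and each library left out in turn. The fit was tested on simulated data.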

Additional observations from a re-analysis of the deposited data

Results flagged for a closer look

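The difference between the labels itself differed between days, by the interaction term of edgeR's fit, for the following members, and the values are differences of log2 differences. For P6 against P1 they were 1.46 for Il1b, 1.04 for Il6 and 0.45 for Ccl3 upwards, and -6.09 for Cxcl15, -1.55 for Ccl7, -1.20 for Il18, -0.85 for Il16, -0.71 for Ccl6 and -0.37 for Ccl9 downwards, with adjusted p from 0.000366 to 0.0238. Calls were lost under some alternatives for Ccl3 (under 6, adjusted p up to 0.0793), Cxcl15 (under 3, adjusted p up to 0.0846) and Il6 (under 4, adjusted p up to 0.0718).

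For P8 against P1 the values were 4.96 for Ccl20, 2.85 for Cxcl11, 2.69 for Ccl4, 2.41 for Ccl2, 2.28 for Ccl3, 2.16 for Ccl7, 2.0004 for Ccl5, 1.98 for Ccl12, 1.57 for Il1a, 1.57 for Ccl9, 1.21 for Cxcl10, 1.15 for Ccl6, 0.88 for Il6, 0.88 for Cxcl14 and 0.84 for Cxcl16 upwards, and -10.16 for Il17b, -4.77 for Cxcl12, -2.51 for Il33, -1.31 for Il34 and -0.51 for Il16 downwards, with adjusted p from 8.50e-08 to 0.0418. Calls were lost for Ccl20 (under 7, adjusted p up to 0.0819), Cxcl11 (under 8, adjusted p up to 0.108), Il16 (under 8, adjusted p up to 0.136), Il17b (under 5, adjusted p up to 1.00), Il1a (under 2, adjusted p up to 0.0708) and Il6 (under 5, adjusted p up to 0.102). Without 1 library the value of Il17b was -3.85 (cKO replicate 1 of P1) or -15.55 (WT replicate 2 of P1), that of Ccl20 9.12 (WT replicate 1 of P8) and that of Cxcl11 8.45 (WT replicate 2 of P8).

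For P8 against P6 they were 11.14 for Ccl20, 3.71 for Ccl7, 3.17 for Cxcl15, 2.88 for Ccl2, 2.33 for Ccl4, 1.93 for Ccl9, 1.86 for Ccl6, 1.83 for Ccl3, 1.81 for Ccl12, 1.52 for Cxcl5, 1.19 for Cxcl10, 0.89 for Il15, 0.77 for Cxcl14, 0.76 for Il18 and 0.49 for Cxcl16 upwards, and -9.05 for Il17b, -7.92 for Cxcl17, -3.18 for Cxcl12, -2.14 for Il33 and -0.82 for Il34 downwards, with adjusted p from 6.99e-08 to 0.0428. Calls were lost for Ccl20 (under 1, adjusted p up to 1.00), Cxcl16 (under 1, adjusted p up to 0.0562), Cxcl17 (under 1, adjusted p up to 0.0512), Cxcl5 (under 10, adjusted p up to 0.138), Il15 (under 5, adjusted p up to 0.0956), Il17b (under 9, adjusted p up to 0.118), Il18 (under 8, adjusted p up to 0.118) and Il34 (under 5, adjusted p up to 0.0724). Without WT replicate 1 of P6 the value of Ccl20 was 5.89 and that of Cxcl5 0.77. Cxcl15 had no count in WT at P1, Ccl20 none in cKO at P6, and Cxcl17 and Il17b none in cKO at P8, so the fitted sizes of their terms depend on the prior count and are no bound. Where adjusted p reached 1.00 (Il17b for P8 against P1 and Ccl20 for P8 against P6, with 1 library left out) the fitted standard error was too large for the value to be read.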

How the results depend on the processing

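No call of a member turned its direction under any alternative, and of the 199 calls over the 10 comparisons 154 were kept under all of them and 45 were lost under at least 1, most often with a library left out. The number of members whose genotype effect differed between P6 and P1 was 9, and 16 by the unadjusted p and 15 in DESeq2. Partner genes called at P1 numbered 6, but 10 by the unadjusted p, 3 on the 4 libraries of P1 alone and 3 to 7 with each library left out, the 3 being without cKO replicate 1 of P1. The other counts stayed within 1.5 times of their value. With each library left out in turn the members called ranged from 5 to 6 at P1, 11 to 15 at P6 and 21 to 25 at P8, from 27 to 29 and 19 to 21 for the steps in WT, from 25 to 28 and 23 to 29 for those in cKO, and from 7 to 11, 15 to 20 and 15 to 21 for the interactions of P6 with P1, P8 with P6 and P8 with P1. Partner genes ranged from 15 to 19 at P6 and 26 to 33 at P8. Over all genes tested, the differences between the WT replicates and those between the cKO replicates correlated at -0.0300, -0.00553 and -0.0627 within P1, P6 and P8. Such a correlation over all genes cannot exclude a shared source that acts on some genes, and replicate numbers were not compared across days. With the replicate number as a block 6, 13 and 25 members were called between the labels, which shared 6, 13 and 25 with the fit without it. Where 1 library was left in a group, its spread was taken from the other groups. Members near 0 in a group, such as Ccl17, Ccl20, Cxcl11, Cxcl15, Cxcl17 and Il17b, rest on few counts, so the sizes of their differences are uncertain, as are the folds of Ccl5 and Cxcl5 against the WT libraries of P6.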
